A study of Arabidopsis thaliana with 16 samples.

Results

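The genes of WRKY group IId are 7 of the many WRKY genes of Arabidopsis thaliana: WRKY7 (AT4G24240), WRKY11 (AT4G31550), WRKY15 (AT2G23320), WRKY17 (AT2G24570), WRKY21 (AT2G30590), WRKY39 (AT3G04670) and WRKY74 (AT5G28650). They were taken as a family, and a peak was counted for a gene when the authors' lists named that gene's transcript as the nearest promoter. This gave 49 of the 16600 peaks in the 12 lists, at 5 of the 7 genes, out of 4316 genes with a peak in any list. Binding was mapped by ChIP-seq, in which DNA fragments precipitated with a bound protein are sequenced, here through an antibody against the HA epitope tag. There were 3 Col-0 lines, described in the series as complementation lines, expressing WRKY18-HA, WRKY33-HA or WRKY40-HA. Whole seedlings 12 days old were either untreated (0 h) or kept for 2 h in medium with 1 µM flg22, a stretch of bacterial flagellin that sets off plant immunity. Each line at each time had 2 biological replicates. Untagged Col-0 wild type (WT) of the same time and replicate number served as the control for calling peaks, and 1 WT library was thus common to the 3 lines of a replicate at each time. The promoters that drive the tagged factors and the number of independent lines are not stated in the labels, and there were no seedlings kept for 2 h without flg22, so flg22 and time cannot be told apart.

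WRKY proteins are plant transcription factors that bind short elements known as W-boxes, and many WRKY genes carry such elements in their own promoters, so that the family regulates itself. Group IId proteins share a domain that binds calmodulin, the calcium sensor, next to the DNA-binding WRKY domain. In Arabidopsis, WRKY7, WRKY11 and WRKY17 are known as negative regulators of resistance to the bacterium Pseudomonas syringae, WRKY15 for its part in growth and oxidative stress, and WRKY39 for heat stress. WRKY18 and WRKY40 belong to group IIa and WRKY33 to group I, and all are themselves regulators of immunity.

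The lists were short at 0 h for WRKY33 (9 and 44 peaks in replicates 1 and 2) and WRKY40 (31 and 20), and longer for WRKY18 (260 and 1843). At 2 h they held 1801 and 2994 peaks for WRKY18, 1653 and 2656 for WRKY33, and 2017 and 3272 for WRKY40. In WRKY40-HA 0 h replicate 1, 27 of the 31 peaks lay on the mitochondrial chromosome. Peak strength is given as the authors' peak score, whose scale is not stated and whose lowest value in the lists was about 10. At 2 h, scores reached 72.3 and 97.1 with WRKY33 and at least 193 in each list of the other lines. Strength was therefore also expressed as a rank percentile, the place of a peak by score in its own list in percent of the list's length, where a low value is a strong peak. Between 0 and 276 peak numbers are absent per list, so a gene without a peak is not shown to be unbound.

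After flg22, 3 members were found in every 2 h list: WRKY11, WRKY15 and WRKY17. WRKY7 and WRKY39 had weaker peaks in some 2 h lists, and WRKY21 and WRKY74 had none in any list. Each line had a peak in both replicates at 4 of the 7 genes at 2 h. For WRKY18 and WRKY40 these were WRKY7, WRKY11, WRKY15 and WRKY17. For WRKY33 they were WRKY11, WRKY15, WRKY17 and WRKY39. Of 38094 genes in the reference table, 3.48% had a peak in both replicates of WRKY18 at 2 h, 3.09% of WRKY33 and 3.93% of WRKY40. All 3 factors met at 3 of the 7 members, against 1.55% of all genes. A peak in any list was found at 5 of the 7 members, against 11.1% of all genes. With limits on distance or score the 4 members became as few as 2. WRKY40 had 2 with peaks centred within 1000 bp of the start, where WRKY7 and WRKY17 were lost. At WRKY17 the WRKY40 peak of replicate 2 was wide, centred at −1312 bp with its maximum at −358 bp. WRKY33 had 2 in the better-scoring 50% of each list.

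**Figure D1:**
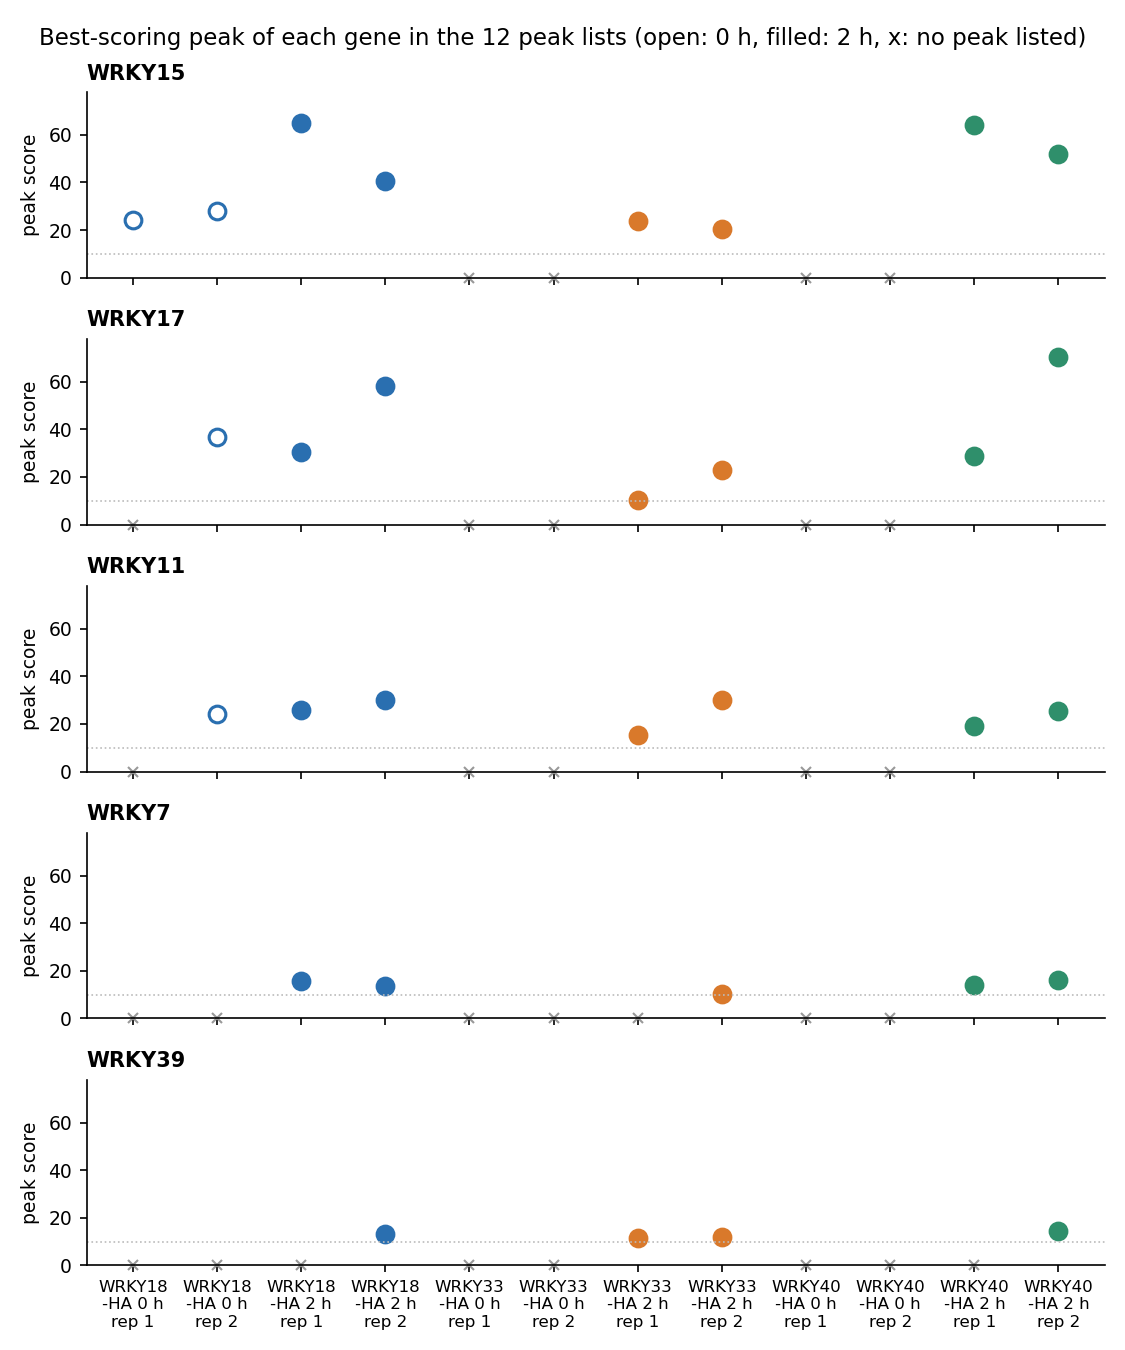
The vertical axis is the authors' score of the best peak assigned to each gene in each of the 12 lists, with 1 panel per gene, open circles for 0 h, filled circles for 2 h, crosses for no listed peak and a dotted line at a score of 10. WRKY15, WRKY17 and WRKY11 had a point in all 6 lists at 2 h, while at 0 h points were found with WRKY18-HA and with neither of the other lines.

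Whether binding near these genes was found more often after flg22 was asked by counting lists. WRKY11 and WRKY17 each had a peak in 6 of 6 lists at 2 h and in 1 of 6 at 0 h. WRKY15 had one in 6 of 6 and 2 of 6. WRKY7 was found in 5 lists and WRKY39 in 4, all at 2 h. All 0 h peaks of the family, 6 in number, came from WRKY18-HA, with 1 in replicate 1 and 5 in replicate 2. The 0 h lists of WRKY33 and WRKY40 held none, but these lists were short: 0.00788% of all genes had a peak in both replicates of WRKY33 at 0 h, and 0% in both of WRKY40. Time labels were permuted within each line in an exact test, two-sided, over the 894 genes with a peak in at least 6 lists, with Benjamini-Hochberg adjustment. All 894 genes had more 2 h than 0 h lists: with so few peaks at 0 h, a gene reaches 6 lists mainly through the 2 h lists. The filter and the lengths of the lists thus fix the direction, and nothing is read from it or from the p-values of single members. None of the 3 members tested passed the threshold of 0.05, where 18.6% of all tested genes did, all 166 of them with 6 lists at 2 h and none at 0 h. The exact permutation test gave an adjusted p of 0.0521 for WRKY11 and for WRKY17 (unadjusted p = 0.0278). Before adjustment these 2 members were under 0.05, as were 477 of all 894 tested genes. For WRKY15 the adjusted p was 0.0853 (unadjusted exact p = 0.0556). Permuting over all 12 libraries regardless of line, 2 members passed, WRKY11 and WRKY17, with an adjusted exact p of 0.0284. In that setting 477 of the 894 tested genes passed, so nothing is read from it for the members.

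WRKY15 had the most peaks of the family, 18, in 3 places upstream of its start (chromosome 2, position 9924933, plus strand, build TAIR10, read from the distances the authors gave). The distal site spanned chr2:9921432-9922574 and was annotated as intergenic. It was listed in 8 of 12 lists, and its maxima lay within 44 bp of each other, at −2767 to −2811 bp from the start. Few peaks lie that far out: 5.38% to 6.18% of the peaks in the 2 h lists were centred 2500 bp or more upstream of the assigned start. The proximal site, chr2:9924044-9925053, overlapped the start and was listed in 7 lists, with maxima at −89 to −149 bp. Between them, a weak site at chr2:9923551-9924020 was listed in the replicate 1 list of each line at 2 h and in no replicate 2 list, with scores of 10.4 to 13.8.

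The distal WRKY15 site was among the strong sites of WRKY18 and WRKY40. With WRKY18 at 2 h it scored 65.0 and 40.7 in replicates 1 and 2, which were places 44 of 1801 and 215 of 2994. With WRKY40 it scored 64.1 and 51.7, places 39 of 2017 and 201 of 3272. With WRKY33 it scored 23.9 and 14.6, places 173 of 1653 and 1290 of 2656. The WRKY18 and WRKY40 values did not overlap those of WRKY33. However, the WRKY33 lists reached only 72.3 and 97.1, against at least 193 in the other 2 h lists. How many other sites show no overlap was not counted. Tags at this site were 2479 and 2990 with WRKY18, 2308 and 2945 with WRKY40, and 487 and 328 with WRKY33. The WT control had 11 to 29 tags in the same 2 h peaks. Over all peaks of a list, tags were also fewer with WRKY33. The median was 624 and 678 with WRKY18, 577 and 570 with WRKY40, and 282 and 222 with WRKY33.

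The proximal WRKY15 site showed another order of the lines. It scored 18.3 and 20.4 with WRKY33, 16.1 and 23.7 with WRKY40, and 12.2 and 16.5 with WRKY18. The WRKY40 values overlapped those of both other lines, and both WRKY33 values lay above those of WRKY18. By rank percentile the proximal peak was at 24.1 and 21.8 for WRKY33, 50.2 and 30.1 for WRKY40, and 74.2 and 46.2 for WRKY18, so it stood higher in the WRKY33 lists than in the others. How many other sites show such an order, by score or by rank, was not counted.

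The ratio of the distal to the proximal score, taken within each library, sets 2 peaks of the same list against each other. It does not remove the difference in score range between lines. From a lowest score of about 10, scores at 2 h reached 72.3 and 97.1 with WRKY33 and at least 193 in the other lists. Ratios of a strong to a weak peak at other genes were not computed. It was 5.31 and 2.47 for WRKY18, 3.98 and 2.19 for WRKY40, and 1.31 and 0.714 for WRKY33. Both WRKY33 libraries lay below the other 4, and how many other genes show such an order was not counted. On the log2 scale the mean was −0.05 ± 0.62 (SD, n = 2) for WRKY33 and 1.71 ± 0.60 (SD, n = 4) for the other lines, a difference of −1.76, or 3.38-fold. The exact permutation test, two-sided, gave p = 0.0667, the smallest that 15 arrangements allow, so this design cannot pass 0.05. From tags the difference was −1.81 (exact permutation p = 0.0667). Replicate 1 lay above replicate 2 in every line, and libraries of 1 replicate share a WT control. Within replicate 1 the difference from scores was −1.81 and within replicate 2 −1.70, and permuting lines within replicates gave an exact p of 0.111, the smallest that 9 arrangements allow. This comparison was chosen after its values were seen, and it is not adjusted for other comparisons that could have been made. In untreated seedlings the ratio could be formed in 1 library, WRKY18-HA replicate 2, where it was 1.94.

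**Figure D2:**
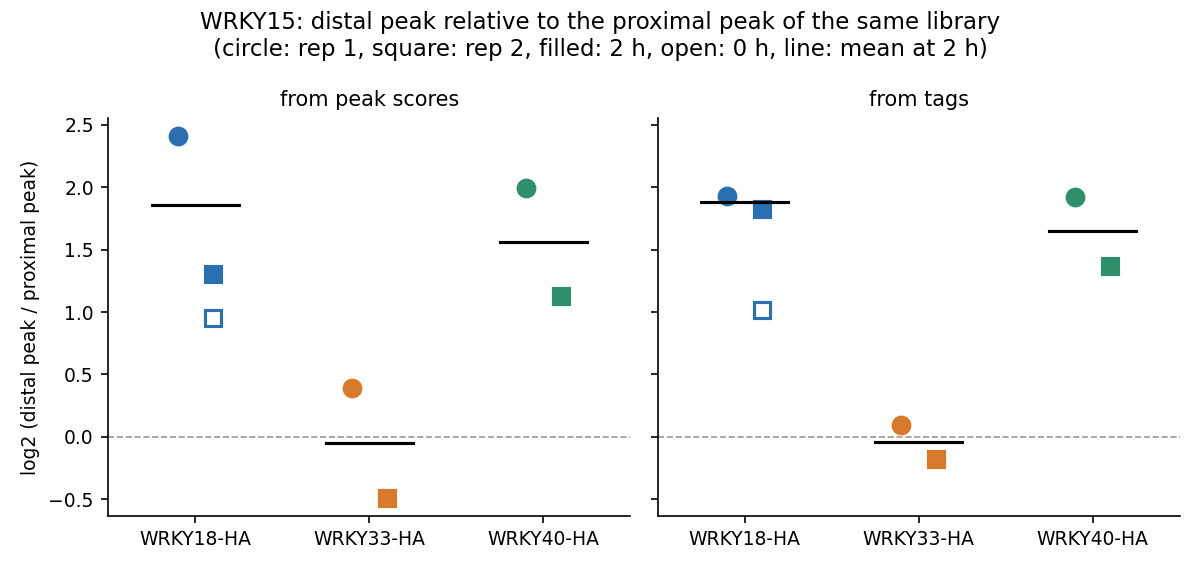
The vertical axis is the log2 ratio of the distal to the proximal WRKY15 peak in each library, from peak scores (left) and from tags (right), by line, with circles for replicate 1, squares for replicate 2, filled symbols for 2 h, an open symbol for 0 h and a line at the 2 h mean. The WRKY33-HA points lie around 0 and those of WRKY18-HA and WRKY40-HA at 2 h lie above 1 in both panels.

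WRKY17, which with WRKY11 restrains basal resistance, had upstream peaks that formed 1 region when merged over lists. It covered chr2:10439264-10441912, upstream from the start (position 10439298, minus strand), with peaks in 7 lists. Only in WRKY40 replicate 2 at 2 h did a single peak, 2591 bp wide, cover nearly all of it. The other lists held shorter peaks, with WRKY33 428 bp wide in replicate 1 and 425 to 608 bp in replicate 2. With WRKY18 at 2 h the best peak scored 30.5 and 58.2, places 285 of 1801 and 79 of 2994. With WRKY40 it scored 28.7 and 70.3, places 341 of 2017 and 76 of 3272. With WRKY33 it scored 10.4 and 23.0, places 1557 of 1653 and 431 of 2656. The best peak scored higher in replicate 2 in every line, but it was not the same peak in both replicates: its maximum lay at −1080 to −1089 bp in replicate 1 and at −352 to −359 bp in replicate 2. The log2 ratio of best-peak scores, replicate 2 to replicate 1, was 0.93, 1.29 and 1.14 for WRKY18, WRKY40 and WRKY33, where the median over all genes with a peak in both lists was 0.21, 0.40 and 0.23. At the peak with its maximum nearest the start, replicate 2 scored 2.44-fold higher with WRKY18 (58.2 against 23.8) and 2.88-fold higher with WRKY40 (70.3 against 24.4). These maxima were not at the same position in replicates 1 and 2. They lay at −205 and −359 bp with WRKY18 and at −202 and −358 bp with WRKY40, whose replicate 2 peak was the one 2591 bp wide. With WRKY33 the peak found in both replicates, with maxima at −1089 and −1061 bp, scored 10.4 and 11.1, a 1.07-fold difference. At the distal WRKY15 site replicate 2 scored lower, with log2 ratios of −0.68, −0.31 and −0.71 for WRKY18, WRKY40 and WRKY33. At the proximal WRKY15 site it scored higher, with 0.43, 0.56 and 0.16. Replicates also differed in their WT control, and effects of control and replicate cannot be told apart.

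For WRKY18 and WRKY40 the positions of the WRKY17 maxima differed between replicates. For WRKY33 the maximum of replicate 1 was found again within 28 bp in replicate 2, in peaks with scores of 10.4 and 11.1, near the lowest listed. The maximum of the best WRKY33 peak differed, at −1089 bp in replicate 1 and −352 bp in replicate 2. In replicate 1 at 2 h, maxima lay at −205 and −1080 bp with WRKY18, at −202 and −1086 bp with WRKY40, and at −1089 bp with WRKY33. In replicate 2 they lay at −359 and −1997 bp with WRKY18, at −358 bp with WRKY40, and at −352, −1061 and −1805 bp with WRKY33. The 0 h replicate 2 list of WRKY18 had maxima at −359 and −1979 bp, close to those of the 2 h list of that replicate. In WRKY40-HA replicate 2 the region was a single peak of 2591 bp with 6479 tags, the 9th widest of 3272. WRKY33 had a further weak peak in replicate 2 alone, 3197 bp downstream of the start, with a score of 10.3.

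**Figure D3:**
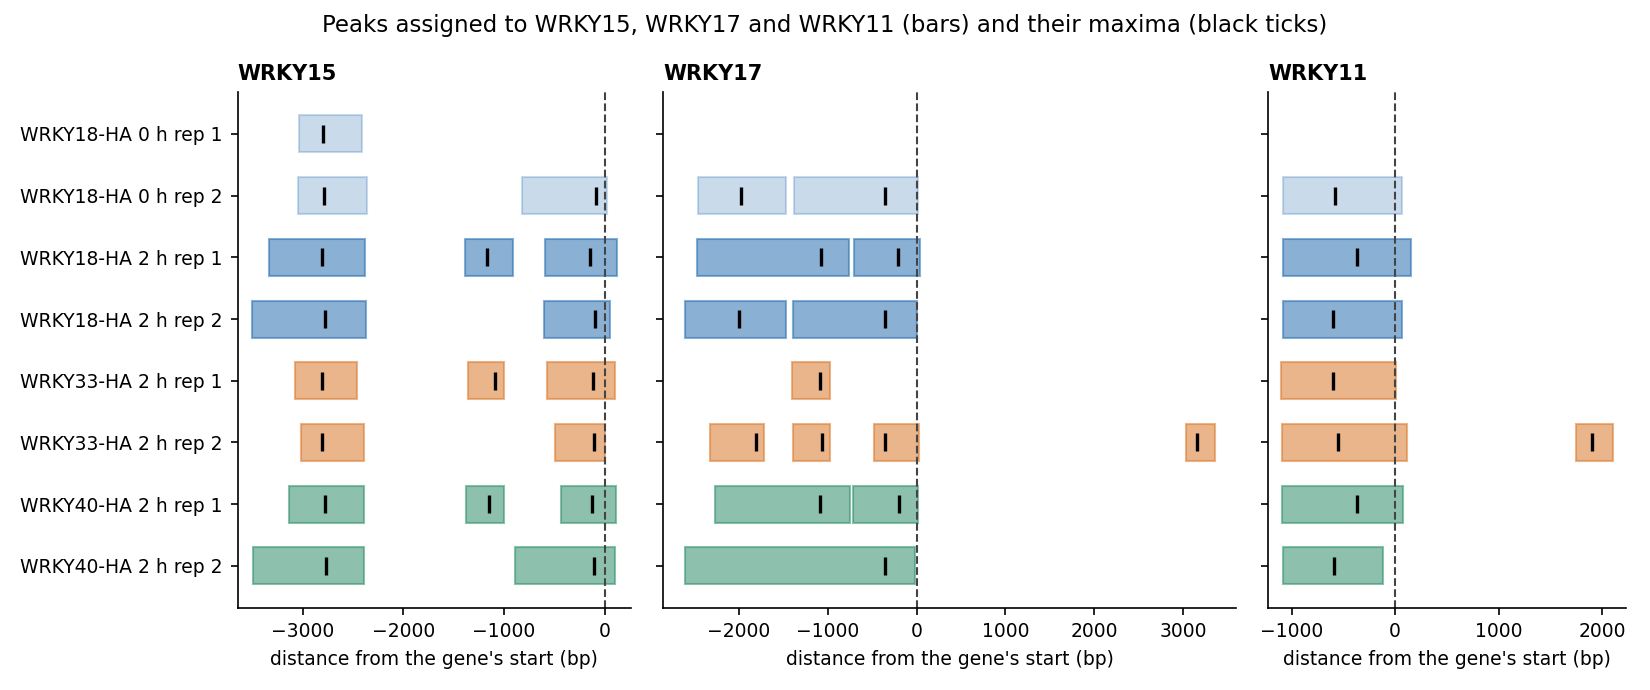
Horizontal bars are the peaks assigned to WRKY15, WRKY17 and WRKY11 by distance from the gene's start in bp (dashed line, negative upstream), with 1 row per list that held peaks of the family and black ticks at the maxima. The distal WRKY15 peak keeps its place in all 8 rows. The maxima in the WRKY17 region lie at different places in replicates 1 and 2 of WRKY18-HA and WRKY40-HA. WRKY33-HA has a maximum of a weak peak at −1089 or −1061 bp in both, and further maxima in replicate 2 alone.

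WRKY11 had 1 promoter site, at chr4:15291390-15292637, next to its start at position 15291540 on the minus strand. It was listed in all 6 lists at 2 h and in 1 at 0 h, centred at −468 to −598 bp. Scores were 25.7 and 30.0 with WRKY18, 15.2 and 30.2 with WRKY33, and 19.0 and 25.5 with WRKY40. The means were 27.9 ± 3.07 (SD, n = 2), 22.7 ± 10.6 and 22.2 ± 4.58, so the lines differed by less than the spread between replicates of WRKY33. Tags over WT, by the authors' ratio, were 12.6 and 14.3 with WRKY18, 9.13 and 12.3 with WRKY33, and 9.07 and 13.8 with WRKY40. The maximum lay at −364 and −368 bp in replicate 1 of WRKY40 and WRKY18 and at −548 to −598 bp in the other lists. WRKY33 replicate 2 also held a peak at the transcript end of WRKY11, 1925 bp from the start, with a score of 11.2.

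WRKY7 differed from the other members in where it was bound. Its peaks lay in and just beyond the gene body, at chr4:12572778-12574188, 1490 to 2150 bp downstream of the start at position 12571766 on the plus strand. The authors annotated them as intron 2 of 2 with WRKY18, exon 3 of 3 with WRKY40, and the end of the neighbouring transcript AT4G24250.1 (MLO13) with WRKY33. In the 2 h lists, 13.1% to 17.0% of all peaks were centred 1000 bp or more downstream of the assigned start. Scores were 15.7 and 13.5 with WRKY18 and 14.0 and 16.2 with WRKY40, all in the weaker 50% of their lists. WRKY33 replicate 2 scored 10.4, with 153 tags against 23 in WT, and replicate 1 had no peak there.

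WRKY39 was found with WRKY33 in both replicates and with WRKY18 and WRKY40 in replicate 2 only. Its site, chr3:1268647-1269347, lay in the promoter, centred at −534 to −653 bp from a start at position 1268350 on the minus strand. Scores were 11.3 and 11.8 with WRKY33, 13.3 with WRKY18 and 14.6 with WRKY40. The rank percentiles were 80.9 and 71.4 with WRKY33, 66.2 with WRKY18 and 62.1 with WRKY40, so all 4 peaks stood in the weaker 50% of their lists. The replicate 2 lists in which WRKY39 was found with WRKY18 and WRKY40 were longer than those of replicate 1 (2994 against 1801 and 3272 against 2017 peaks).

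WRKY18 was the factor with peaks at these genes before flg22. At 0 h it was found at the distal WRKY15 site in both replicates, with scores of 24.2 and 28.1, so 1 of 7 members had a 0 h peak in both lists, against 0.543% of all genes. In replicate 2 it was also found at the proximal WRKY15 site (14.5), in 2 peaks at WRKY17 (37.0 and 22.8) and at WRKY11 (24.3). Each of these 6 peaks overlapped a 2 h peak of the same replicate with a higher score. Most WRKY18 peaks did: 243 of 260 in replicate 1 and 1561 of 1843 in replicate 2 overlapped a 2 h peak. Of these, 90.5% and 68.9% scored higher at 2 h. At the distal WRKY15 site the score was 2.68-fold higher at 2 h in replicate 1 and 1.45-fold in replicate 2, and tags went from 463 to 2479 and from 1133 to 2990 (log2 ratios of 2.42 and 1.40). Over all overlapping peaks the median log2 tag ratio was 2.37 in replicate 1 and 0.82 in replicate 2, so the rise in tags of replicate 1 was close to that of the median peak. The WRKY17 peaks were 1.57-fold and 1.87-fold higher, and WRKY11 1.24-fold. Across all overlapping peaks the log2 score ratio of 2 h to 0 h had a median of 1.07 in replicate 1 (243 peaks) and 0.25 in replicate 2 (1561 peaks). The member peaks lay at 1.42 in replicate 1 and at 0.18 to 0.90 in replicate 2, with 5 of 6 above the median of their replicate. These peaks came from WRKY11, WRKY15 and WRKY17 alone, with the distal WRKY15 site counted in both replicates, so nothing is read from this count. At the WRKY17 peak centred at −1966 bp, WT had 3 tags at 0 h and 53 at 2 h.

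Between lines, ranks at 2 h were compared over the 600 genes with a peak in all 6 lists. The WRKY33 rank percentile minus the mean of the other lines was 45.8 points at WRKY17, 11.7 at WRKY15 and −1.34 at WRKY11, from the best peak of each gene in each list. Over the 600 genes the median was 3.31 and the quartiles were −12.5 and 21.4. WRKY17 exceeded 93.5% of these genes, but its WRKY33 percentiles were 94.2 in replicate 1 and 16.2 in replicate 2, so the difference rests on replicate 1. The WRKY11 value lay between the quartiles. The WRKY15 value mixes sites, because the best WRKY33 peak of replicate 2 was the proximal one and all other best peaks were distal. Taken site by site the difference was 25.1 points at the distal site and −27.2 at the proximal site. At the distal site the WRKY33 percentiles were 10.5 in replicate 1 and 48.6 in replicate 2. Those of WRKY18 and WRKY40 were 2.44 and 1.93 in replicate 1, and 7.18 and 6.14 in replicate 2. The distal difference thus came mostly from replicate 2. Differences at single sites were not computed for other genes. With 2 libraries against 4 an exact test has 15 arrangements and a smallest p of 0.0667, so these differences were not tested.

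The genes most alike in rank percentile over the 12 lists, by mean absolute difference, were different for each member. For WRKY15 they were AT1G29850 (2.48 points) and AT3G56720 (2.73), each in 8 lists. For WRKY17 they were BRG1 (AT5G45100, 2.21) and AT3G47965 (2.42), and for WRKY11 the oligopeptide transporter gene OPT4 (3.50) and AT4G17670 (4.40), each in 7 lists. For WRKY7 they were the calcium-dependent kinase gene CPK7 (1.92) and the transporter gene ABCG42 (2.51), and for WRKY39 AT5G41590 (1.75) and AT1G56145 (2.14), each in 4 lists. Lists of 1 replicate share a control, and a gene absent from most lists is close to many others by this measure.

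Other WRKY groups were counted in the same way. In group IIe, the closest to IId in sequence, WRKY18, WRKY33 and WRKY40 had peaks in both replicates at 1, 2 and 1 of 8 genes at 2 h. All 3 factors met there at WRKY29, an early immune gene. In group III the counts were 8, 6 and 8 of 13, with WRKY30, WRKY38, WRKY41 and WRKY53 shared by all 3 factors. In group IIa, which holds WRKY18 and WRKY40 themselves, they were 2, 1 and 3 of 3. Group IId had 4, 4 and 4 of 7, as a share 57.1% for each line. The differences between groups were not tested. Of the 7 calmodulin genes CAM1 to CAM7, whose products group IId proteins bind, none had a peak in both replicates of a line at 2 h. CAM3 had promoter peaks in 3 lists, with scores of 20.8 and 11.9 in WRKY18-HA replicate 2 at 0 h and 2 h and 11.7 in WRKY33-HA replicate 1 at 2 h.

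**Figure D4:**
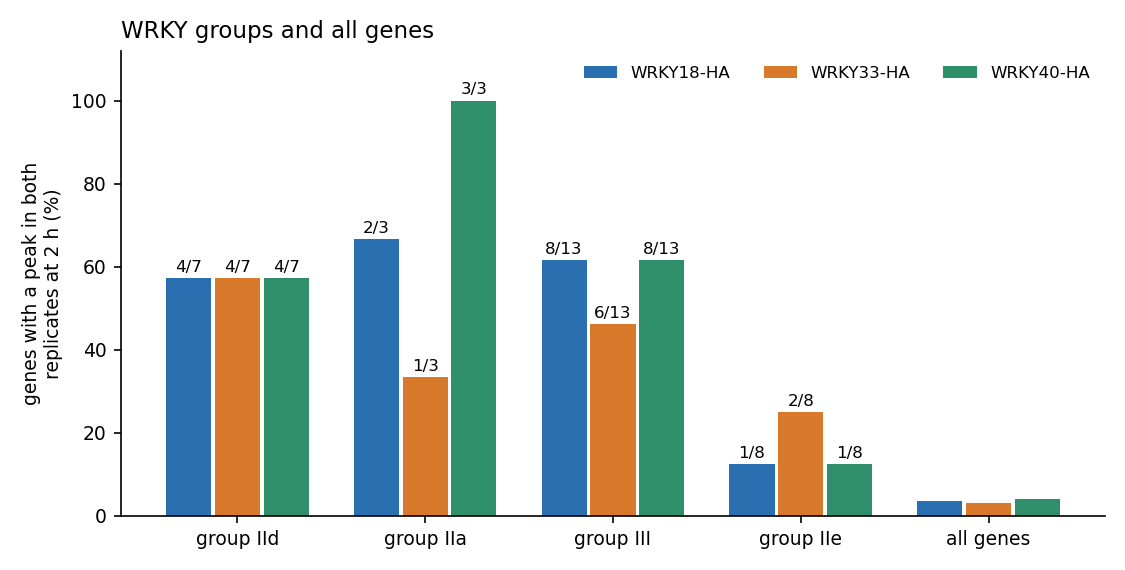
Bars give the share of genes, in percent, with a peak in both replicates at 2 h for each line, in WRKY groups IId, IIa, III and IIe and over all genes of the reference table, with the counts above the bars of the WRKY groups. Group IId stands at 4 of 7 in each line, group IIe at 1, 2 and 1 of 8, and all genes at 3.09% to 3.93%.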

How the data were processed

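Each of the 12 HA libraries has 1 deposited peak list, so replicates were not pooled. The submitters' processing notes name HOMER, Bowtie 0.12.7, cutadapt 1.2.1, FastQC 0.11.2 and the build TAIR10. How peaks were called, and at which threshold, is not given in the sources used here. Per the file headers, the authors deposited a peak score for the HA library and for WT, tag counts for both, their ratios (fold enrichment of scores and of tags) and a −log10 q-value. For the 49 peaks, −log10 q ran from 93.4 to 26154. The deposited tag ratio is not a fixed multiple of the tag counts, so no interval was attached to it. Tag counts of 134 to 6479 per peak give counting errors of 8.64% to 1.24%. Libraries had 7 to 20 M reads of 100 bp per the labels, without a total for each.

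Peaks of 1 gene were merged over lists where they overlapped by at least 1 bp. Starts were computed from peak midpoints and deposited distances, which led to 1 start per gene within 0.5 bp. Coordinates are 1-based, TAIR10. Gene names, neighbours and the 38094 background genes came from a RefSeq table of assembly TAIR10.1, in which all 71 listed WRKY genes and all 7 CAM genes were found. Presence of a peak was compared between times by an exact permutation test within lines (216 arrangements). The test was run on simulated data in which an unchanged gene had the same rate of peaks in every library. The real 0 h lists were much shorter than the 2 h lists, so the simulation does not speak for the test under that imbalance. All 7 members were to be named, plus the 2 genes most alike for each member with at least 4 lists. Members and lists were chosen with earlier results of these data known. Alternatives changed the permutation, the genes tested, the distance, the score limits, the overlap and the replicates. Python 3.11.15, numpy 2.4.6, pandas 2.3.3 and matplotlib 3.10.9 were used. Sequences were not used here.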

Additional observations from a re-analysis of the deposited data

How the results depend on the processing

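Permuting over all 12 libraries, 2 members passed the test of 2 h against 0 h, against 0 as reported. In that setting 477 of the 894 tested genes passed. With peaks centred within 1000 bp of the start, 0 members and 109 of 507 genes passed, and WRKY17 was not among the genes tested. In the better-scoring 50% of each list, 0 members and 78 of 378 genes passed. With a score ratio of at least 5, 0 members and 180 of 864 genes passed. Several other alternatives could call no gene and say nothing about stability. With a replicate block (64 arrangements, smallest exact p 0.0312) 559 of the 894 genes would have to reach that p and 166 did, so 0 passed, with adjusted exact permutation p of 0.117 for WRKY11 and WRKY17 and 0.140 for WRKY15. The labels do not say that replicate numbers pair the 0 h and 2 h libraries, and the correlation of deviations was 0.197 for WRKY18, −0.0024 for WRKY33 and 0.0031 for WRKY40. With genes in at least 4 lists (1843) or in any list (4316), 342 and 800 genes would have been needed, and 0 passed. Without replicate 1 or 2 the test cannot pass with 8 arrangements (0 and 0).

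The count of members with a peak in both WRKY18 0 h lists was 1. It was 0 with peaks within 1000 bp and 0 with any peak centred within 2000 bp, since the distal WRKY15 site lies farther out, and 1 to 3 when replicate 2 or replicate 1 was left out. The WRKY40 2 h count fell to 2 with peaks centred within 1000 bp and the WRKY33 2 h count to 2 in the better-scoring 50%. Leaving out a replicate gave 4 to 5 members at 2 h for each line. The other alternatives gave 3 or 4 at 2 h. The WRKY15 distal to proximal difference was −1.70 and −1.81 without replicate 1 and without replicate 2, and −1.76 with a replicate block, with alternatives added after the data were seen.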

Other observations

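Strong peaks near WRKY15 were assigned by the authors to its neighbour AT2G23321, a protein-coding gene. They were centred 1721 to 1753 bp downstream of the WRKY15 start, at the transcript end of AT2G23321, and were listed in 6 lists. Scores at 2 h were 30.5 and 62.0 with WRKY18, 28.4 and 80.4 with WRKY40, and 19.2 with WRKY33 in replicate 1, and WRKY18 scored 36.5 in 0 h replicate 2. This site scored higher in replicate 2 with WRKY18 and WRKY40, whereas the distal WRKY15 site, on the other side of the gene, scored higher in replicate 1.

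WRKY74 had no assigned peak, but its neighbour WVD2 (AT5G28646), which encodes a microtubule-associated protein, had a promoter peak in 7 lists. With WRKY18 it scored 16.1 and 31.3 at 2 h, with WRKY33 12.2 and 23.5, and with WRKY40 12.3 and 33.2, and WRKY18 had a score of 11.1 in 0 h replicate 2. The neighbours of WRKY21, DRIP2 and AT2G30600, had no peak in any list.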
